A study of Rattus norvegicus with 16 samples.

Results

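Genes for the pore-forming and auxiliary subunits of voltage-gated sodium, calcium and potassium channels, of the other potassium channels and of the hyperpolarisation-activated HCN channels were followed in the rat hippocampus after iron-induced seizures. They were chosen by gene symbol (Scn with a number and a or b, Cacna, Cacnb, Cacng, Kcn and Hcn), leaving out Kcnj8 and Kcnj13, which are markers of pericytes and choroid plexus. The choice was made with earlier results of these data known. The array carried 118 such genes, of which 99 were measured, in that some group had them well above background on each of its arrays, among 26565 features in all. A gene is represented by its brightest probe, and 15 of the 99 had more than 1 measured probe. All probes of a gene had differences of the same sign for 11, 12 and 10 of these 15 genes on days 5, 15 and 30. Of the 99, 96 were above background on all 16 arrays, and Scn10a, Kcnh5 and Kcnip1 were not. The 19 genes not well above background on every array of any group were Scn4a, Scn11a, Cacna1f, Cacng5, Kcna7, Kcnh8, Kcnq1, Kcnv2, Kcne1, Kcne3, Kcne4, Kcnmb1, Kcnj1, Kcnj2, Kcnj15, Kcnk3, Kcnk15, Kcnk18 and Hcn4.

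The study used the right hippocampus of 16 male Wistar rats in 4 groups of 4, with 1 Agilent 1-colour array per rat. All rats had surgery at 5 weeks of age and received, 5 days later, 1.0 µl of fluid into the right amygdala. Controls received saline at pH 2.2 and were collected on day 15 after the infusion. The Fe groups received 100 mM FeCl3 in the same saline and were collected on day 5 (the acute phase of the labels), day 15 (sub-chronic) or day 30 (chronic). Iron salts in the amygdala set off recurrent limbic seizures and serve as a model of epilepsy after bleeding into the brain. The labels report no seizures in the controls, and seizure counts of the single rats were not analysed here. Since controls were taken on day 15 alone, iron cannot be told apart from age and time since infusion on days 5 and 30. The 3 comparisons with control also share the same 4 control arrays.

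Voltage-gated sodium channels carry the upstroke of the action potential, and their beta subunits set gating and surface level. Calcium channels turn depolarisation into transmitter release and gene regulation, with alpha2delta and beta subunits that bring the alpha1 pore to the membrane. Potassium channels repolarise the membrane, set the resting potential and limit repetitive firing, and HCN channels carry a depolarising current on hyperpolarisation that is prominent in the dendrites of hippocampal pyramidal cells. Mutations in many of these genes cause inherited epilepsies.

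Values below are log2 signals relative to the 75th percentile of each array, in the order of replicates 1 to 4, and differences are Fe minus control on the log2 scale with the standard error (SE) of a limma fit over all features. Between 74.2% and 81.6% of the transcript spots of an array were well above background, and no spot was saturated. Pan-neuronal genes and markers of dentate granule, CA1, CA3 and inhibitory neurons were measured on these arrays (8 of 10, 6 of 8, 6 of 8, 4 of 8 and 7 of 10 listed genes). Several Fe arrays stood apart in markers of neighbouring tissue. The summed signal of the 6 measured choroid plexus markers of 10, in multiples of the 75th percentile of the array, was 4.84 to 6.69 in controls, 7.11 to 36.7 at Fe day 5, 5.89 to 8.64 at Fe day 15 and 4.58 to 314 at Fe day 30, highest in Fe day 5 replicate 3 and Fe day 30 replicate 3. That of the 10 meningeal and fibroblast markers was 10.1 to 11.5 in controls, 10.6 to 189 at Fe day 5, 10.2 to 19.4 at Fe day 15 and 10.8 to 133 at Fe day 30, highest in Fe day 5 replicates 2 and 3 and Fe day 30 replicate 3. None of the measured markers was at 0. Results are therefore also given without these 3 arrays (Fe day 5 replicates 2 and 3, Fe day 30 replicate 3), and the part these tissues play in the results was not tested. In a tissue homogenate, fewer cells of a type and less RNA per cell cannot be told apart. The 16 arrays lay on 7 slides, and each control was the first array of its slide.

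The 5 genes whose unadjusted p was under 0.05 on all 3 days (4 lower, 1 higher) were the P/Q-type calcium channel pore Cacna1a, the calcium channel gamma subunit Cacng6, the A-type potassium channel pore Kcnd2, the potassium channel beta subunit Kcnab1, and, with a higher signal, the delayed-rectifier pore Kcna5. Of all features, 1.08% were lower and 0.508% higher at an unadjusted p under 0.05 on all 3 days. The set depended on the setting, and with the slide as a block in the fit, or without control replicate 1 or 3, Cacng6 was the only one of the 5 under 0.05 on every day. The 5 promoters are shown because these genes were chosen by that p, and none of them was called. Each run holds 250 bases before and 50 after the annotated start, 5′ to 3′ on the gene's strand, from RefSeq on GRCr8. In the Cacna1a run the last 50 bases open with a start codon (atg). That annotated start may therefore be that of the coding sequence, and the window need not lie at the start of transcription. Capitals mark a GC box (GGGCGG or its reverse CCGCCC, bound by Sp1-type factors) or the core of a cAMP response element (TGACG or its reverse CGTCA), searched on both strands. The Cacna1a window (chr19:40650419-40650718, minus strand) holds 1 GC box, the Cacng6 window (chr1:74662704-74663003, minus strand) holds 2, and the Kcnab1 window (chr2:151614301-151614600, plus strand) holds 1 cAMP core. The windows of Kcnd2 (chr4:50742235-50742534, plus strand) and Kcna5 (chr4:161043760-161044059, minus strand) hold neither string, and in no window shown do motifs overlap.
Cacna1a: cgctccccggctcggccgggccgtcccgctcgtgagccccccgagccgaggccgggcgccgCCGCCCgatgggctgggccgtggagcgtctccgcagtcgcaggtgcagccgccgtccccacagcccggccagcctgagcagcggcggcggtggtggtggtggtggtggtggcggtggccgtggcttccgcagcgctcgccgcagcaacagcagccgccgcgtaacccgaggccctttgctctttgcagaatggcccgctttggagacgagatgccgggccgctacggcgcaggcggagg
Cacng6: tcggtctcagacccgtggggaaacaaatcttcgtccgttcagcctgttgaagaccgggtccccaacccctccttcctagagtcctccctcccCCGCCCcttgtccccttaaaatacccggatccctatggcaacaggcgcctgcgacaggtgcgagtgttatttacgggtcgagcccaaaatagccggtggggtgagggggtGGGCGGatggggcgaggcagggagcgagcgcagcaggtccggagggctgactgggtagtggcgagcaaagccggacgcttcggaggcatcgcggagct
Kcnd2: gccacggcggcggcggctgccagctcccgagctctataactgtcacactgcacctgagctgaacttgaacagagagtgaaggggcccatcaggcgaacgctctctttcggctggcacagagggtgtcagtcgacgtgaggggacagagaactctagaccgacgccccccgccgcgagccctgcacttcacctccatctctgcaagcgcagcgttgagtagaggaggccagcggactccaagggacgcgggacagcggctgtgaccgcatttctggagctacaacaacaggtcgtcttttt
Kcnab1: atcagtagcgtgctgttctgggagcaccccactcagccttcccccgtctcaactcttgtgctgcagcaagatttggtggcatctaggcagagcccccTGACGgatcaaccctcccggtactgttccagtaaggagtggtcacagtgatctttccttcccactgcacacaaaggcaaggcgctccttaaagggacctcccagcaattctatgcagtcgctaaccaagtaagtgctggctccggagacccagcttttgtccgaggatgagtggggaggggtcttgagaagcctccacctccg
Kcna5: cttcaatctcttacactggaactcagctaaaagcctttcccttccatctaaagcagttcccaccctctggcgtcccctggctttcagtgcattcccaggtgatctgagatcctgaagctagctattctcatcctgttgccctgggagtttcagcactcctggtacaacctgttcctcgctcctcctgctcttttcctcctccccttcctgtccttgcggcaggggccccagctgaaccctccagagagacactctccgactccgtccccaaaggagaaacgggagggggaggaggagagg
Of the 63 channel genes matched in the promoter table, 34 (54.0%) held a GC box in at least 1 window, against 36.0% of all 27457 genes of the table. The cAMP core was present in 11 of the 63 (17.5%), against 23.0% of all genes. The median GC content of the channel promoters was 64.7%, against 51.7% of all promoters. These are descriptions of the windows and not of binding.

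No channel gene passed the threshold of an adjusted p under 0.05 (limma, Benjamini-Hochberg over all features) on any Fe day against control. The same threshold was passed by 0% of all features at days 5 and 15 and by 0.00753% at day 30. The lowest adjusted p among the channel genes was 0.47 at day 5, 0.29 at day 15 and 0.46 at day 30. The moderated F-test over the 4 groups called none either, with a lowest adjusted p of 0.48 and 11 of the 99 genes at an unadjusted p under 0.05, against 8.34% of all features. Differences are given below with both p-values, and none of them counts as a call.

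At an unadjusted p under 0.05, 18 of the 99 genes were lower and 3 higher than control at day 5, against 6.28% and 4.06% of all features. At day 15 the counts were 13 lower and 7 higher, against 6.33% and 5.17%. At day 30 they were 9 lower and 1 higher, against 4.66% and 3.12%. The lower genes made up 18.2%, 13.1% and 9.09% of the members on the 3 days, and the higher ones 3.03%, 7.07% and 1.01%. Genes with all 4 Fe arrays below all 4 controls numbered 14, 9 and 7 of 99, against 5.09%, 5.73% and 3.63% of all features, and those with all 4 above numbered 2, 3 and 2, against 2.75%, 4.11% and 2.62%.

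The size of the differences was small. The median log2 difference of the 99 genes was -0.11 at day 5, -0.06 at day 15 and -0.10 at day 30, against -0.02, 0.00 and -0.01 over all features. The fitted difference was below 0 for 57, 56 and 74 of the 99 genes, against 54.2%, 49.7% and 53.4% of all features. It was below 0 on all 3 days for 47 genes (47.5%, against 33.0% of all features) and above 0 on all 3 days for 19 (19.2%, against 28.3%). The days share their controls, so this count is not evidence from separate experiments.

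**Figure D1:**
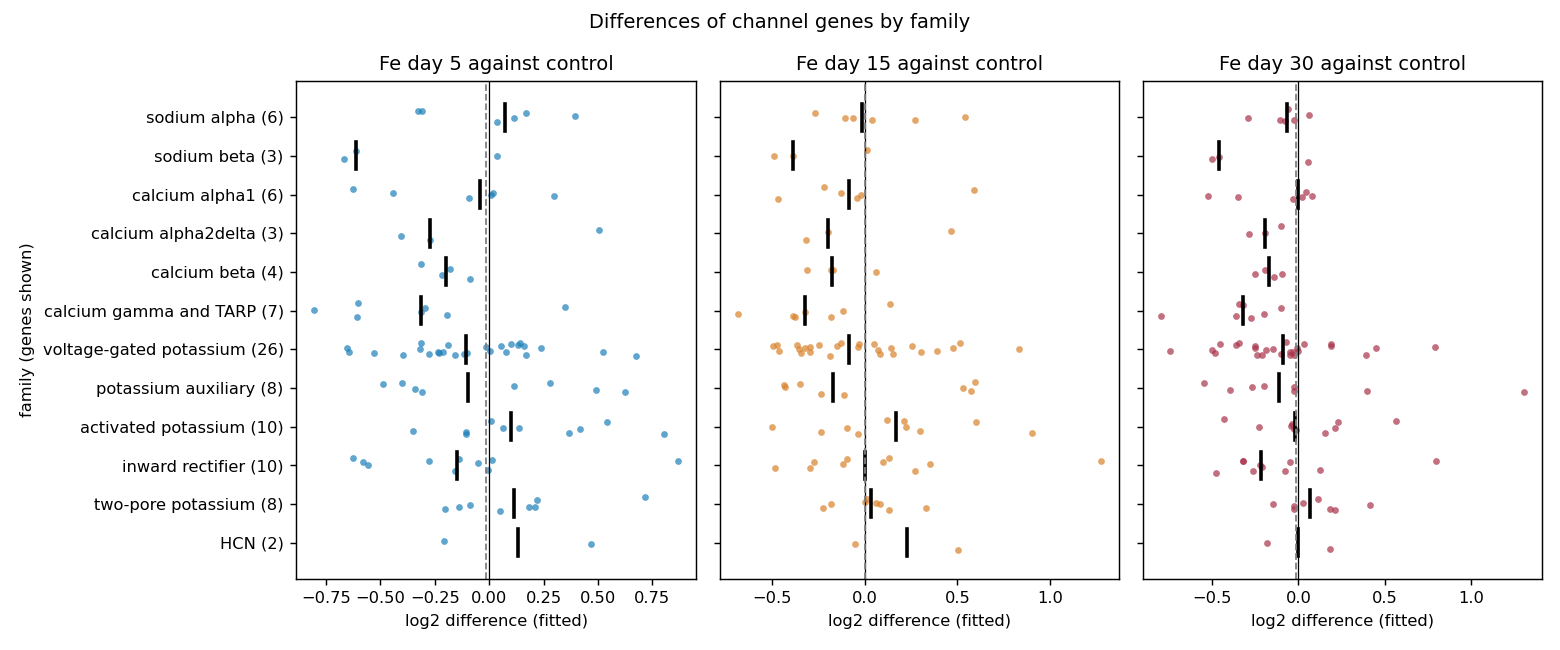
Fitted log2 differences of 93 of the 99 channel genes (points) from control at each Fe day by family, with the median of the points as a black bar, 0 as a solid line and the median of all features as a dashed line. Medians of the calcium gamma and TARP family lie at -0.32 on each day. Those of the sodium alpha genes shown lie at 0.07, -0.01 and -0.07, and those of the two-pore genes at 0.12, 0.04 and 0.07.

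These counts depended on single arrays. At day 5, lower genes at an unadjusted p under 0.05 numbered 8 in place of 18 without Fe day 5 replicate 2 (2.68% of all features), and higher genes 11 in place of 3 without Fe day 5 replicate 3 (5.51%) and 1 without replicate 2 (2.43%). At day 15, the 13 lower genes became 5, 6 and 5 without control replicates 1, 2 and 3 (4.84%, 4.66% and 5.17% of all features), 8 without Fe day 15 replicate 1 (5.25%) and 4 without Fe day 15 replicate 4 (4.16%), while the 7 higher genes became 3 without control replicate 3 (3.71%) or Fe day 15 replicate 4 (4.11%). In the cases of control replicates 1 and 3 and of Fe day 15 replicate 4, the share of lower channel genes (5.05%, 5.05% and 4.04%) was thus close to that of all features. At day 30, the 9 lower genes became 4 without control replicate 1 (3.41% of all features) or 2 (2.87%), 2 without Fe day 30 replicate 3 (2.74%), and 16 without Fe day 30 replicate 4 (6.46%) or Fe day 15 replicate 4 (5.22%), the last of which entered only through the shared spread, and the 1 higher gene became 2 without Fe day 30 replicate 4. Without the 3 arrays high in choroid plexus or meningeal markers, the counts were 11 lower and 7 higher at day 5 (4.84% and 4.10% of all features), 18 and 8 at day 15 (8.26% and 6.79%), and 4 and 1 at day 30 (3.09% and 4.34%). The median differences were then -0.07, -0.06 and -0.06.

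The pore-forming sodium channel subunits of brain showed small differences. Scn8a, which codes for the Nav1.6 channel of the axon initial segment, read 1.81, 1.88, 1.57 and 1.57 in controls, 1.45, 1.18, 1.62 and 1.35 at Fe day 5, 1.57, 1.52, 1.70 and 0.97 at Fe day 15, and 1.44, 1.36, 1.32 and 1.53 at Fe day 30. All 4 day 30 arrays lay below the controls, and Fe day 15 replicate 4 was the lowest array of all. Its difference was -0.31 (SE 0.14, adjusted p 0.48) at day 5, -0.27 (SE 0.14, adjusted p 0.48) at day 15 and -0.29 (SE 0.14, adjusted p 0.65) at day 30. Scn2a, the main Nav1.2 pore of excitatory axons, differed by no more than 0.11 in either direction on any day by its brighter probe, while a second probe gave -0.08, -0.23 and -0.23. Its lowest array was Fe day 30 replicate 3 at 3.31 against 3.74 to 3.79 in the rest of that group. Scn3a, an embryonic-type pore, differed by 0.11 at day 5, -0.06 at day 15 and -0.11 at day 30 (SE 0.12 each).

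Scn1a, the Nav1.1 pore of fast-spiking interneurons mutated in Dravet syndrome, read 0.21 to 0.30 in controls and 1.29 in Fe day 15 replicate 1, against 0.18 to 0.37 in the other three day 15 arrays. Its day 15 difference of 0.27 (SE 0.22, adjusted p 0.64) came with overlapping groups. Scn9a and Scn10a, pores known from peripheral nerve, were dim. Scn9a was above the control range in Fe day 5 replicates 1 and 2 and in Fe day 15 replicates 1, 2 and 4, with differences of 0.40, 0.54 and -0.03 (SE 0.36), and a second, dimmer probe gave 1.67, 0.44 and 0.18. Scn10a differed by -0.33 at day 5 with groups that overlapped on every day. The lowest adjusted p of a sodium channel alpha gene was 0.48.

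Of the sodium channel beta subunits, Scn3b, which is abundant in hippocampus, read 7.60, 7.60, 7.44 and 7.48 in controls and 6.95, 6.50, 7.25 and 6.97 at Fe day 5, with every Fe array below every control. At Fe day 15 it read 7.05, 7.31, 7.60 and 6.20 and at Fe day 30 7.32, 6.96, 6.34 and 7.49, so that 1 array of each of these groups was within the control range. The differences were -0.61, -0.49 and -0.50 (SE 0.28, adjusted p 0.48, 0.51 and 0.66). Without the 3 arrays the day 30 value was -0.27. Scn4b, a beta subunit tied to resurgent current, read 2.60 to 2.70 in controls and between 1.33 and 3.03 on the Fe arrays, with differences of -0.67, -0.39 and -0.46 (SE 0.36) and groups that overlapped. Scn2b, which is disulphide-linked to the pore, was flat by comparison, with differences of 0.04, 0.01 and 0.06 (SE 0.08). The lowest arrays of Scn3b were Fe day 5 replicate 2, Fe day 15 replicate 4 and Fe day 30 replicate 3.

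**Figure D2:**
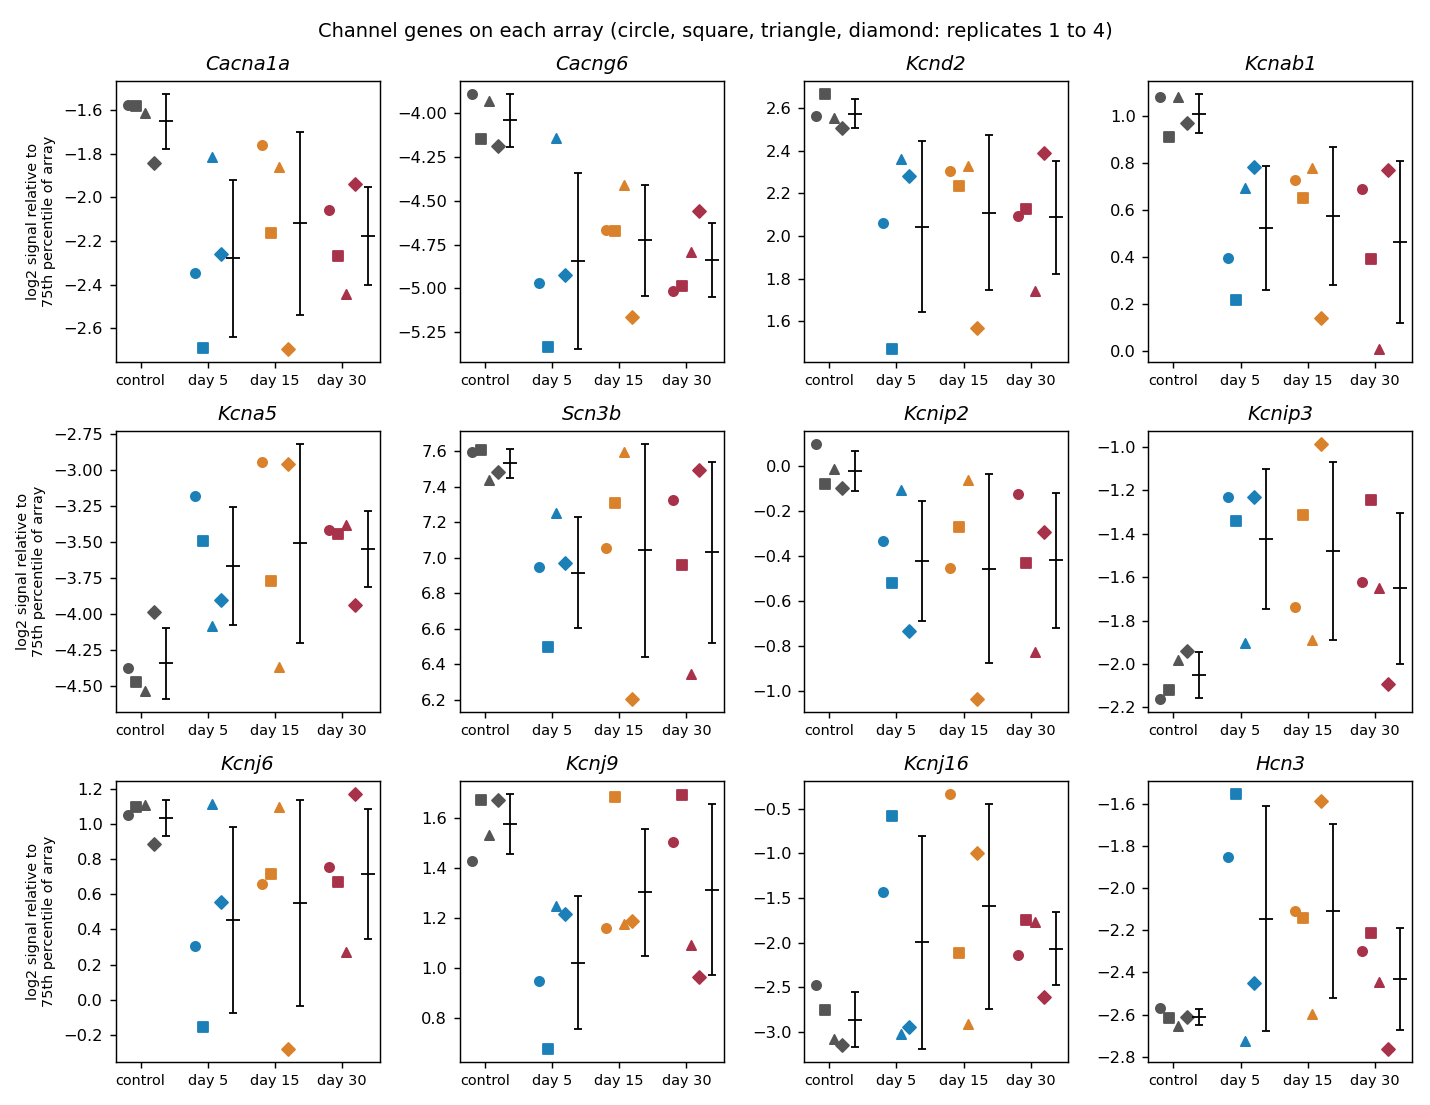
Log2 signal of 12 channel genes on each array by group (symbols give replicates 1 to 4), with the group mean and 1 SD beside the points. Scn3b and Kcnj9 lie below all controls on every Fe day 5 array, Kcnd2 and Kcnab1 lie below all controls on every Fe array, and Hcn3 overlaps the controls in every Fe group.

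Among the calcium channel alpha1 pores, Cacna1a, the P/Q-type channel of presynaptic terminals, had lower signals on all 3 days. It read -1.58, -1.58, -1.61 and -1.84 in controls, -2.35, -2.69, -1.82 and -2.26 at Fe day 5, -1.76, -2.16, -1.86 and -2.69 at Fe day 15, and -2.06, -2.27, -2.45 and -1.94 at Fe day 30. All day 30 arrays lay below all controls, while Fe day 5 replicate 3 and Fe day 15 replicate 1 reached the lowest control, replicate 4. The differences were -0.63 (SE 0.20, 1.54-fold lower, unadjusted p 0.0082, adjusted p 0.47), -0.47 (unadjusted p 0.038, adjusted p 0.41) and -0.52 (unadjusted p 0.022, adjusted p 0.63). Without the 3 arrays it was -0.65 at day 5 and -0.44 at day 30.

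Cacna1e, the R-type pore, was lower by its brightest probe at day 5 (-0.44, SE 0.14, unadjusted p 0.0080, adjusted p 0.47) and day 30 (-0.35, unadjusted p 0.028, adjusted p 0.63) but not at day 15 (-0.02). Its dimmer probes gave -0.50, -0.46 and -0.36 at day 5 and -0.20, -0.18 and -0.15 at day 15. At day 30 they gave -0.29, -0.32 and -0.36. By the brightest probe the day 5 arrays of Cacna1e read -0.25, -0.58, -0.18 and -0.61. Controls read 0.04, 0.28, -0.33 and 0.15, and control replicate 3 overlapped the day 5 arrays. Cacna1g, a T-type pore that opens near the resting potential, had the opposite sign at day 15, where it read -1.10, -0.93, -1.52 and -0.78 against -1.81, -1.69, -1.68 and -1.49 in controls (difference 0.59, SE 0.21, unadjusted p 0.013, adjusted p 0.34), and only replicate 3 overlapped the controls. Its differences at days 5 and 30 were 0.30 and 0.08. The N-type pore Cacna1b, the L-type pore Cacna1c and the T-type pore Cacna1i were within 0.22 of control on every day by their brightest probes. The lowest Cacna1c difference was at day 15 (-0.22, SE 0.11, adjusted p 0.46). Dimmer probes gave -0.08, -0.13 and -0.23 for Cacna1b and -0.15, -0.30 and 0.09 for Cacna1c.

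The alpha2delta and beta subunits, which carry the pore to the membrane, had fitted differences below 0 in most cases, none of them called. Cacna2d1, the target of gabapentin, read 5.85, 5.96, 5.85 and 5.88 in controls and 5.65, 5.26, 5.78 and 5.76 at Fe day 5, below the controls on every array (-0.27, SE 0.14, adjusted p 0.50). Cacna2d3 read 2.05 to 2.61 in controls and 1.91, 1.54, 2.02 and 1.93 at Fe day 5, also without overlap (-0.41, SE 0.18, adjusted p 0.48). For both genes the later days overlapped the controls. The dim Cacna2d2 went from 0.51 above control at day 5 to -0.10 at day 30 (SE 0.38), set by Fe day 5 replicate 2 and Fe day 15 replicate 1.

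Cacnb3, a beta subunit of N- and L-type channels in hippocampus, read 5.03, 5.01, 5.01 and 4.90 in controls, 4.72, 4.46, 4.81 and 4.70 at Fe day 5, 4.49, 4.88, 4.82 and 4.51 at Fe day 15, and 4.91, 4.74, 4.40 and 4.89 at Fe day 30. Every array of days 5 and 15 lay below every control, and the day 30 group overlapped by 1 array. The differences were -0.31, -0.31 and -0.25 (SE 0.12, adjusted p 0.47, 0.38 and 0.65), or 1.24-, 1.24- and 1.19-fold lower. Cacnb1 had the same order at smaller size (-0.22, -0.18 and -0.14, SE 0.12), again with no overlap at days 5 and 15. Cacnb2 and Cacnb4 differed by 0.20 or less on every day by their brightest probes and overlapped throughout. A second, dimmer Cacnb2 probe gave -0.21, -0.24 and -0.13.

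The gamma family, which includes the TARP proteins that escort AMPA receptors to synapses, had a fitted difference below 0 for 6 of 7 genes at days 5 and 15 and for 7 of 7 at day 30, against 54.2%, 49.7% and 53.4% of all features. At an unadjusted p under 0.05, 3, 1 and 2 of the 7 were lower, against 6.28%, 6.33% and 4.66% of all features, and none was called. Cacng6, a gamma subunit related to that of muscle calcium channels, had the lowest p of all channel genes in the F-test (0.0058, adjusted p 0.48). It read -3.89, -4.15, -3.93 and -4.19 in controls, -4.97, -5.34, -4.14 and -4.92 at Fe day 5, -4.66, -4.67, -4.41 and -5.16 at Fe day 15, and -5.01, -4.99, -4.79 and -4.56 at Fe day 30. Only Fe day 5 replicate 3 overlapped the controls, and all arrays of days 15 and 30 lay below them. The differences were -0.80 (SE 0.22, 1.75-fold lower, unadjusted p 0.0022, adjusted p 0.47), -0.69 (unadjusted p 0.0065, adjusted p 0.29) and -0.80 (unadjusted p 0.0023, adjusted p 0.46). The day 5 and day 30 values were -0.91 and -0.81 without the 3 arrays. With normexp background correction, another way to treat the background of this dim probe, the differences were smaller, at -0.45, -0.25 and -0.33.

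Of the TARPs, Cacng8, the main partner of AMPA receptors in hippocampus, read 2.15, 2.40, 2.06 and 2.20 in controls, 1.66, 1.29, 2.06 and 1.40 at Fe day 5, 1.78, 2.03, 2.25 and 1.20 at Fe day 15, and 1.93, 1.71, 1.64 and 2.24 at Fe day 30. In each Fe group 1 array was at control level and the others were lower. The differences were -0.60 (SE 0.22, unadjusted p 0.014, adjusted p 0.47), -0.39 and -0.32. Cacng3 differed by -0.61 at day 5 (SE 0.22, adjusted p 0.47), with Fe day 5 replicate 2 at -1.09 and the other three at -0.19 to 0.12, against 0.09 to 0.58 in controls. Without Fe day 5 replicates 2 and 3 that difference was -0.33. Cacng2, or stargazin, read 0.80 to 0.94 in controls and 0.76, 0.11, 0.75 and 0.70 at Fe day 5, below control on every array (-0.29, SE 0.18, adjusted p 0.54), mainly through replicate 2.

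The 29 voltage-gated potassium pores split in direction. Those lower at an unadjusted p under 0.05 numbered 4, 6 and 3 on days 5, 15 and 30 (13.8%, 20.7% and 10.3%), against 6.28%, 6.33% and 4.66% of all features. On each day 1 was higher (3.45%), against 4.06%, 5.17% and 3.12% of all features. The fitted differences ran from -0.65 to 0.68, from -0.50 to 0.83 and from -0.75 to 0.79 on the 3 days. The lowest at days 5 and 30 was that of Kcnh7, with replicate 4 of both groups within the control range. Kcnd2 codes for Kv4.2, which carries the dendritic A-type current of CA1 pyramidal cells. It read 2.56, 2.67, 2.55 and 2.51 in controls, 2.06, 1.47, 2.36 and 2.28 at Fe day 5, 2.31, 2.23, 2.33 and 1.57 at Fe day 15, and 2.09, 2.12, 1.74 and 2.39 at Fe day 30. All 12 Fe arrays lay below all 4 controls. The differences were -0.53 (SE 0.20, 1.44-fold lower, unadjusted p 0.021, adjusted p 0.47), -0.46 (unadjusted p 0.038, adjusted p 0.41) and -0.48 (unadjusted p 0.031, adjusted p 0.63). Without the 3 arrays they were -0.40 at day 5 and -0.37 at day 30.

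Markers of CA1 and dentate granule neurons were set beside these values. The summed signal of the 6 measured CA1 markers of 8 was 15.4 to 19.7 in controls, 9.66 to 14.8 at Fe day 5, 9.65 to 16.8 at Fe day 15 and 10.9 to 18.1 at Fe day 30. The lowest sum at Fe day 5 was in replicate 1. The median of the 6 markers was lowest on the arrays that were lowest for Kcnd2, at -0.76 in Fe day 5 replicate 2, -0.81 in Fe day 15 replicate 4 and -0.92 in Fe day 30 replicate 3, relative to the control mean. The 6 measured dentate granule markers of 8 summed to 14.1 to 20.9 in controls, 8.68 to 14.7 at Fe day 5, 9.16 to 16.2 at Fe day 15 and 13.3 to 15.8 at Fe day 30. Their medians at Fe day 15 were -0.34, -0.24, -0.13 and -0.87, all below the controls. Not all markers were lower. On days 5, 15 and 30 the fitted difference was above 0 for 3, 2 and 2 of the 6 dentate markers. For the 6 CA1 markers the counts were 1, 2 and 1. The 4 measured CA3 markers had median differences of -0.09, -0.19 and -0.02, and the 7 interneuron markers 0.08, 0.24 and -0.07. None of these markers was at 0. The part of these cells in the channel results was not tested. The 8 pan-neuronal markers had medians of -0.10, -0.02 and -0.22 on Fe day 5 replicate 2, Fe day 15 replicate 4 and Fe day 30 replicate 3.

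Several other A-type and delayed-rectifier pores had smaller differences. Kcna4, an A-type pore, had a difference of -0.37 at day 15 (SE 0.21, adjusted p 0.50) with overlap. Kcna1, the Kv1.1 pore of axons, read 4.61 to 4.88 in controls and 4.59, 4.47, 4.45 and 3.91 at Fe day 15, below every control (-0.35, SE 0.15, unadjusted p 0.036, adjusted p 0.41). Its day 30 difference was also -0.35 but overlapped, and a second, dimmer probe gave -0.24 at day 15 and -0.08 at day 30. Kcna2, the Kv1.2 pore, and Kcnc2, a Kv3 pore of fast-spiking cells, were within 0.15 of control on each day. Kcnc1, another Kv3 pore, was at 0.95 to 1.06 in controls and at 1.97 in Fe day 15 replicate 1 alone.

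Kcna5, a delayed-rectifier pore also known from glia and vascular muscle, was the only channel gene higher at an unadjusted p under 0.05 on all 3 days. It read -4.37, -4.47, -4.53 and -3.98 in controls, -3.18, -3.49, -4.08 and -3.90 at Fe day 5, -2.94, -3.77, -4.36 and -2.96 at Fe day 15, and -3.42, -3.44, -3.38 and -3.94 at Fe day 30. All day 30 arrays lay above the controls, and Fe day 5 replicate 3 and Fe day 15 replicate 3 lay within their range. The differences were 0.68, 0.83 and 0.79 (SE 0.29, 1.60-, 1.78- and 1.74-fold higher, adjusted p 0.47, 0.33 and 0.63). They were 0.80 at day 5 and 0.74 at day 30 without the 3 arrays. With normexp background correction they were 0.18, 0.36 and 0.27 (unadjusted p 0.28, 0.042 and 0.12), and with the slide as a block the day 5 value was 0.37 (unadjusted p 0.29).

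Vascular, blood and astrocyte markers were set beside Kcna5. Relative to the control mean, Kcna5 was at 1.40, 0.57, -0.02 and 1.38 on the Fe day 15 arrays. On the same arrays the blood marker medians were 0.02, 0.93, 1.01 and 1.19. The pericyte and smooth muscle medians were 0.27, 0.16, 0.04 and 0.17. For the 9 measured endothelial markers they were 0.08, -0.07, -0.06 and -0.06. For the 8 measured astrocyte markers they were 0.32, -0.14, -0.02 and 0.13. The 8 measured pericyte and smooth muscle markers of 10 summed to 10.2 to 11.5 in controls, 11.4 to 15.8 at Fe day 5, 11.02 to 12.2 at Fe day 15 and 10.9 to 14.4 at Fe day 30. Their fitted differences were above 0 for 8, 6 and 8 of the 8, with medians of 0.26, 0.19 and 0.45. The 8 measured blood markers of 10 summed to 62.4 to 93.3 in controls, 71.8 to 191 at Fe day 5, 73.4 to 168 at Fe day 15 and 63.5 to 217 at Fe day 30, with median differences of 0.74, 0.79 and 0.43. None of these pericyte, smooth muscle or blood markers was at 0 or called. The part of any of these cell types in the Kcna5 values was not tested.

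Silent and EAG-type subunits made up much of the rest. Kcnv1, a silent subunit that modifies Kv2 channels, was lower at day 15 alone, reading 1.06, 1.62, 1.50 and 1.17 against 1.80 to 1.86 in controls and 1.43 to 2.15 at Fe day 30 (-0.50, SE 0.15, unadjusted p 0.0061, adjusted p 0.29). Kcns2, also silent, was below every control at days 5 and 30 (-0.64 and -0.45, SE 0.21, adjusted p 0.47 and 0.65) and overlapped at day 15 (-0.48, adjusted p 0.42). Kcng4 was lower at day 15 (-0.32, SE 0.12, adjusted p 0.37), and Kcnh1, the EAG1 pore, at days 5 and 15 (-0.28 and -0.30, SE 0.11, adjusted p 0.47 and 0.36), with overlapping groups in both. Kcnq3, a pore of the M-current whose mutations cause neonatal epilepsy, had differences of -0.32, -0.25 and -0.24, all with overlap and adjusted p of 0.56 or higher.

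The auxiliary subunits of the Kv1 and Kv4 complexes differed in sign. Kcnab1, the Kv beta1 subunit that confers inactivation on Kv1 channels, read 1.08, 0.91, 1.08 and 0.97 in controls, 0.40, 0.22, 0.69 and 0.78 at Fe day 5, 0.73, 0.65, 0.78 and 0.14 at Fe day 15, and 0.69, 0.39, 0.01 and 0.77 at Fe day 30. As for Kcnd2, all 12 Fe arrays lay below all 4 controls. The differences were -0.49 (SE 0.18, unadjusted p 0.016, adjusted p 0.47), -0.44 (unadjusted p 0.028, adjusted p 0.39) and -0.55 (unadjusted p 0.0085, adjusted p 0.55, 1.46-fold lower). A second Kcnab1 probe gave -0.49, -0.36 and -0.54. Kcnab2, the other main Kv1 beta subunit, was below control on every day 5 array (-0.34, SE 0.15, adjusted p 0.47) and overlapped later (-0.35 and -0.27). Kcnab3 read 0.87 in Fe day 15 replicate 1 against -1.40 to -0.90 in the rest of that group. Relative to the control mean it was also at 0.68 in Fe day 5 replicate 4, 0.54 in Fe day 30 replicate 2 and -0.41 in Fe day 30 replicate 3.

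The KChIP proteins bind Kv4 channels and raise their current. Kcnip2, KChIP2, read 0.10, -0.08, -0.01 and -0.10 in controls, -0.34, -0.52, -0.11 and -0.74 at Fe day 5, -0.46, -0.27, -0.06 and -1.03 at Fe day 15, and -0.12, -0.43, -0.83 and -0.30 at Fe day 30. Days 5 and 30 lay wholly below the controls and day 15 overlapped by 1 array (-0.40, -0.43 and -0.40, SE 0.20, adjusted p 0.48, 0.43 and 0.65). Kcnip4 was lower by -0.31, -0.24 and -0.20 with overlap.

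Kcnip3 had the opposite sign. It codes for KChIP3, also called calsenilin or DREAM, a calcium sensor that acts as a transcriptional repressor as well. It read -2.16, -2.12, -1.98 and -1.94 in controls, -1.23, -1.34, -1.90 and -1.23 at Fe day 5, -1.74, -1.31, -1.89 and -0.99 at Fe day 15, and -1.62, -1.25, -1.65 and -2.09 at Fe day 30. All arrays of days 5 and 15 lay above all controls, and at day 30 only replicate 4 did not. The differences were 0.63 (SE 0.21, 1.54-fold higher, unadjusted p 0.010, adjusted p 0.47), 0.57 (unadjusted p 0.017, adjusted p 0.36) and 0.40 (unadjusted p 0.080, adjusted p 0.65). Kcnip1 was not above background on 1 array each of days 5 and 30 and has differences of 0.28, 0.60 and -0.02 (SE 0.48). Kcne2, an auxiliary subunit of choroid plexus epithelium, read -4.46 to -4.25 in controls and 0.99 in Fe day 30 replicate 3, the array with the highest choroid plexus signal. Its day 30 difference of 1.31 (SE 0.92) was -0.03 without the 3 arrays.

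Among the calcium- and sodium-activated potassium channels, the BK pore Kcnma1 and the SK pores Kcnn1 and Kcnn2 were within 0.14 of control on every day, although a second Kcnma1 probe was at 0.32 at day 5. Kcnn3, the SK3 pore, read -3.42, -3.31, -3.59 and -3.70 in controls and -3.21, -2.84, -3.30 and -2.27 at Fe day 15, above every control (0.60, SE 0.25, unadjusted p 0.029, adjusted p 0.39). Kcnmb2, a BK beta subunit, was 0.37 above control at day 5 (SE 0.17, adjusted p 0.48), and Kcnn4, an intermediate-conductance pore used by microglia, stood high in Fe day 15 replicate 4 (-1.59) and Fe day 30 replicate 3 (-1.23) against -4.22 to -3.81 in controls. On those 2 arrays the summed signal of the 10 microglial markers was 86.5 and 77.9, against 39.2 to 42.1 in controls, 41.1 to 46.5 at Fe day 5, 35.7 to 36.9 in the other three day 15 arrays and 30.5 to 41.0 in the other three day 30 arrays. Fe day 5 replicates 2 and 3 also lay above every control for Kcnn4, at 0.75 and 0.52 relative to the control mean. None of the microglial markers was at 0, and their part in the Kcnn4 values was not tested.

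The sodium-activated pores had opposite signs. Kcnt1, or Slack, which is mutated in severe childhood epilepsies, read -3.20, -3.04, -3.22 and -2.66 in controls, -1.90, -1.98, -3.27 and -1.75 at Fe day 5, -1.57, -2.29, -3.24 and -1.40 at Fe day 15, and -2.45, -1.90, -2.62 and -2.86 at Fe day 30. In both of the first 2 Fe groups replicate 3 was just below the control range and the other three arrays were above it. The differences were 0.80, 0.90 and 0.57 (SE 0.39, adjusted p 0.48, 0.41 and 0.70), and without the 3 arrays the day 5 value was 1.20. Kcnt2, or Slick, differed by -0.35, -0.50 and -0.43 (SE 0.23, adjusted p 0.57, 0.43 and 0.65), with overlap on each day. A second, dimmer Kcnt2 probe gave -0.08, -0.46 and -0.26.

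The inward rectifiers include the GIRK pores Kcnj3, Kcnj6 and Kcnj9, which carry slow inhibition downstream of G-protein coupled receptors. Kcnj9, GIRK3, read 1.43, 1.67, 1.53 and 1.67 in controls and 0.95, 0.67, 1.25 and 1.22 at Fe day 5, below every control (-0.56, SE 0.17, 1.47-fold lower, unadjusted p 0.0065, adjusted p 0.47). It was closer at days 15 and 30 (-0.27 and -0.26), where the groups overlapped. Kcnj6, GIRK2, read 1.05, 1.10, 1.11 and 0.89 in controls, 0.31, -0.16, 1.11 and 0.56 at Fe day 5, 0.66, 0.72, 1.10 and -0.28 at Fe day 15, and 0.76, 0.67, 0.27 and 1.17 at Fe day 30. In each Fe group 1 array was at control level and the other three were below it (-0.58, -0.49 and -0.32, SE 0.29, adjusted p 0.48, 0.53 and 0.77). Kcnj3, GIRK1, differed by -0.28, -0.30 and -0.21 (SE 0.21).

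Kcnj11, the Kir6.2 pore that couples metabolism to excitability, was lower at day 5 (-0.62, SE 0.27, unadjusted p 0.035, adjusted p 0.47) through replicates 1 and 2, at 1.10 and 0.53 against 1.75 to 2.06 in controls. Its day 15 and day 30 differences were -0.10 and -0.48. The Kir2-type pores Kcnj12 and Kcnj14 were highest at day 15 (0.35 and 0.27 above control), with F-test p-values of 0.017 and 0.016 (adjusted p 0.54 and 0.53). The astrocytic Kir4.1 pore Kcnj10 was within 0.13 of control. Its partner Kcnj16, Kir5.1, read -2.48, -2.75, -3.08 and -3.15 in controls, -1.44, -0.58, -3.03 and -2.95 at Fe day 5, -0.33, -2.12, -2.92 and -1.0 at Fe day 15, and -2.14, -1.75, -1.76 and -2.62 at Fe day 30, with both high and control-like arrays in each group (0.87, 1.28 and 0.80, SE 0.57, adjusted p 0.57, 0.42 and 0.71).

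The two-pore potassium channels, which set the resting conductance, had median differences of 0.12, 0.04 and 0.07 on days 5, 15 and 30. For Kcnk1 and Kcnk2, the TWIK1 and TREK1 pores, the largest difference was -0.20, for Kcnk1 at day 5. Kcnk5, the TASK2 pore, read -2.86, -1.42, -2.67 and -2.19 at Fe day 5 against -3.14 to -2.89 in controls, above all of them (0.72, SE 0.29, unadjusted p 0.025, adjusted p 0.47). Its highest array was the one with the highest meningeal signal, and the difference was 0.48 without Fe day 5 replicates 2 and 3. Fe day 30 replicate 3 was also high for Kcnk5, at -1.89.

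Among the HCN channels, Hcn2 read -2.04, -2.38, -2.04 and -2.15 at Fe day 5 against -2.03 to -1.77 in controls, just below all of them (-0.21, SE 0.15, adjusted p 0.60). Hcn3 was 0.47, 0.50 and 0.18 above control (SE 0.24, adjusted p 0.49, 0.44 and 0.84), with Fe day 5 replicate 3 and Fe day 15 replicate 3 at control level. A second, dimmer Hcn3 probe gave 0.36, 0.13 and 0.09.

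Rats of one Fe group differed from each other more in channel genes than control rats did. The median SD of a channel gene within a group was 0.13 in controls, 0.30 at Fe day 5, 0.32 at Fe day 15 and 0.26 at Fe day 30, on the log2 scale. For all features it was 0.13, 0.18, 0.18 and 0.19. The SD was above that of the controls for 88, 89 and 82 of the 99 genes (88.9%, 89.9% and 82.8%), against 68.4%, 68.0% and 70.1% of all features. It was over 2 times the control SD for 58.6%, 59.6% and 46.5% of the channel genes, against 33.9%, 31.9% and 34.9% of features. Splitting the genes in 3 by signal gave medians of 0.41, 0.41 and 0.28 in the dimmest and 0.27, 0.26 and 0.26 in the brightest set for the Fe groups, against 0.17 and 0.12 in controls. For all features in the same ranges of signal they were 0.23, 0.23 and 0.23 in the dimmest and 0.13, 0.12 and 0.14 in the brightest, against 0.18 and 0.076 in controls. Bright channel genes thus had a larger SD than bright features in controls as well. These are descriptions of 4 rats a group and carry no test.

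**Figure D3:**
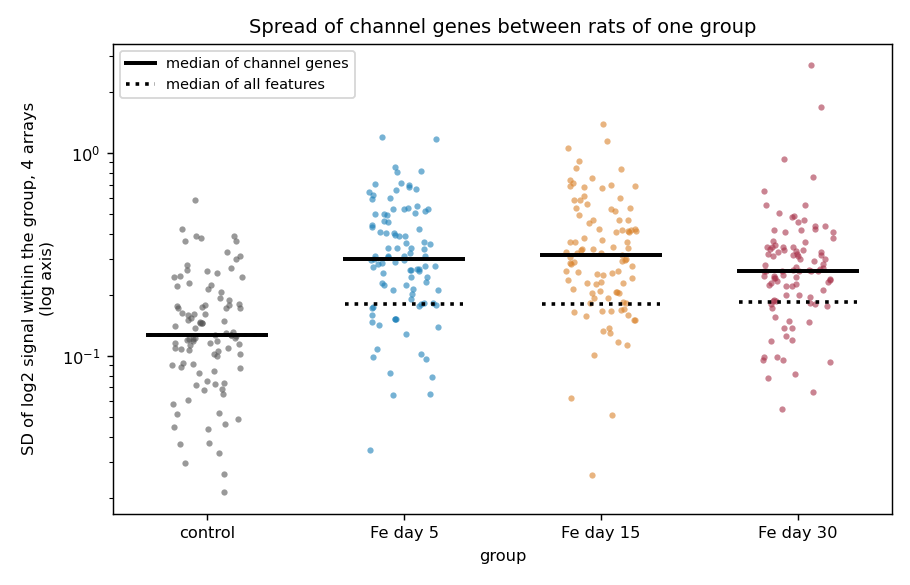
SD of each of the 99 channel genes within each group of 4 arrays (points, log axis), with the median of the channel genes as a solid bar and that of all 26565 features as a dotted bar. The 2 medians coincide at 0.13 in controls and separate in the Fe groups, at 0.30 against 0.18, 0.32 against 0.18 and 0.26 against 0.19.

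Arrays of one group differed in how many genes lay far from the control mean, a mean that each control array itself enters. The part of single arrays in the SD was not tested. Genes more than 0.5 below their control mean numbered 0 to 1 on control arrays. They numbered 18, 29, 5 and 12 of 99 on the Fe day 5 arrays, against 4.29%, 7.95%, 2.52% and 6.80% of all features. At Fe day 15 they numbered 14, 6, 1 and 29 (7.18%, 4.72%, 3.14% and 8.21% of features), and at Fe day 30 7, 8, 36 and 4 (3.97%, 3.46%, 9.93% and 3.04%). Fe day 15 replicate 3 and Fe day 30 replicate 4 were thus close to control, and Fe day 5 replicate 2, Fe day 15 replicate 4 and Fe day 30 replicate 3 were the farthest below. Fe day 30 replicate 3 was the lowest of its group for 70 of the 99 genes (70.7%, against 45.2% of all features), and Fe day 5 replicate 2 for 46 (46.5%, against 31.5%). Fe day 15 replicate 4, the lowest for 37 genes (37.4%, against 31.9% of all features), had a choroid plexus signal of 7.75, near the control range, a meningeal signal of 19.4 and the highest microglial signal.

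Genes more than 0.5 above their control mean were counted in the same way. They numbered 0 to 1 on control arrays and 16, 20, 2 and 10 at Fe day 5, against 6.22%, 11.6%, 6.85% and 5.10% of all features. At Fe day 15 they numbered 15, 11, 2 and 18 (6.65%, 4.46%, 5.13% and 11.8% of features), and at Fe day 30 5, 8, 8 and 1 (5.27%, 8.67%, 10.6% and 2.84%). The share of high channel genes was thus below that of all features on every Fe day 30 array and on replicate 3 of days 5 and 15. The arrays with many low genes were therefore in part those with many high genes, apart from Fe day 30 replicate 3, where 36 were low and 8 high. On that array the median over the 99 genes was -0.40, against -0.05, -0.05 and -0.04 on the other three day 30 arrays and -0.09 for all features.

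**Figure D4:**
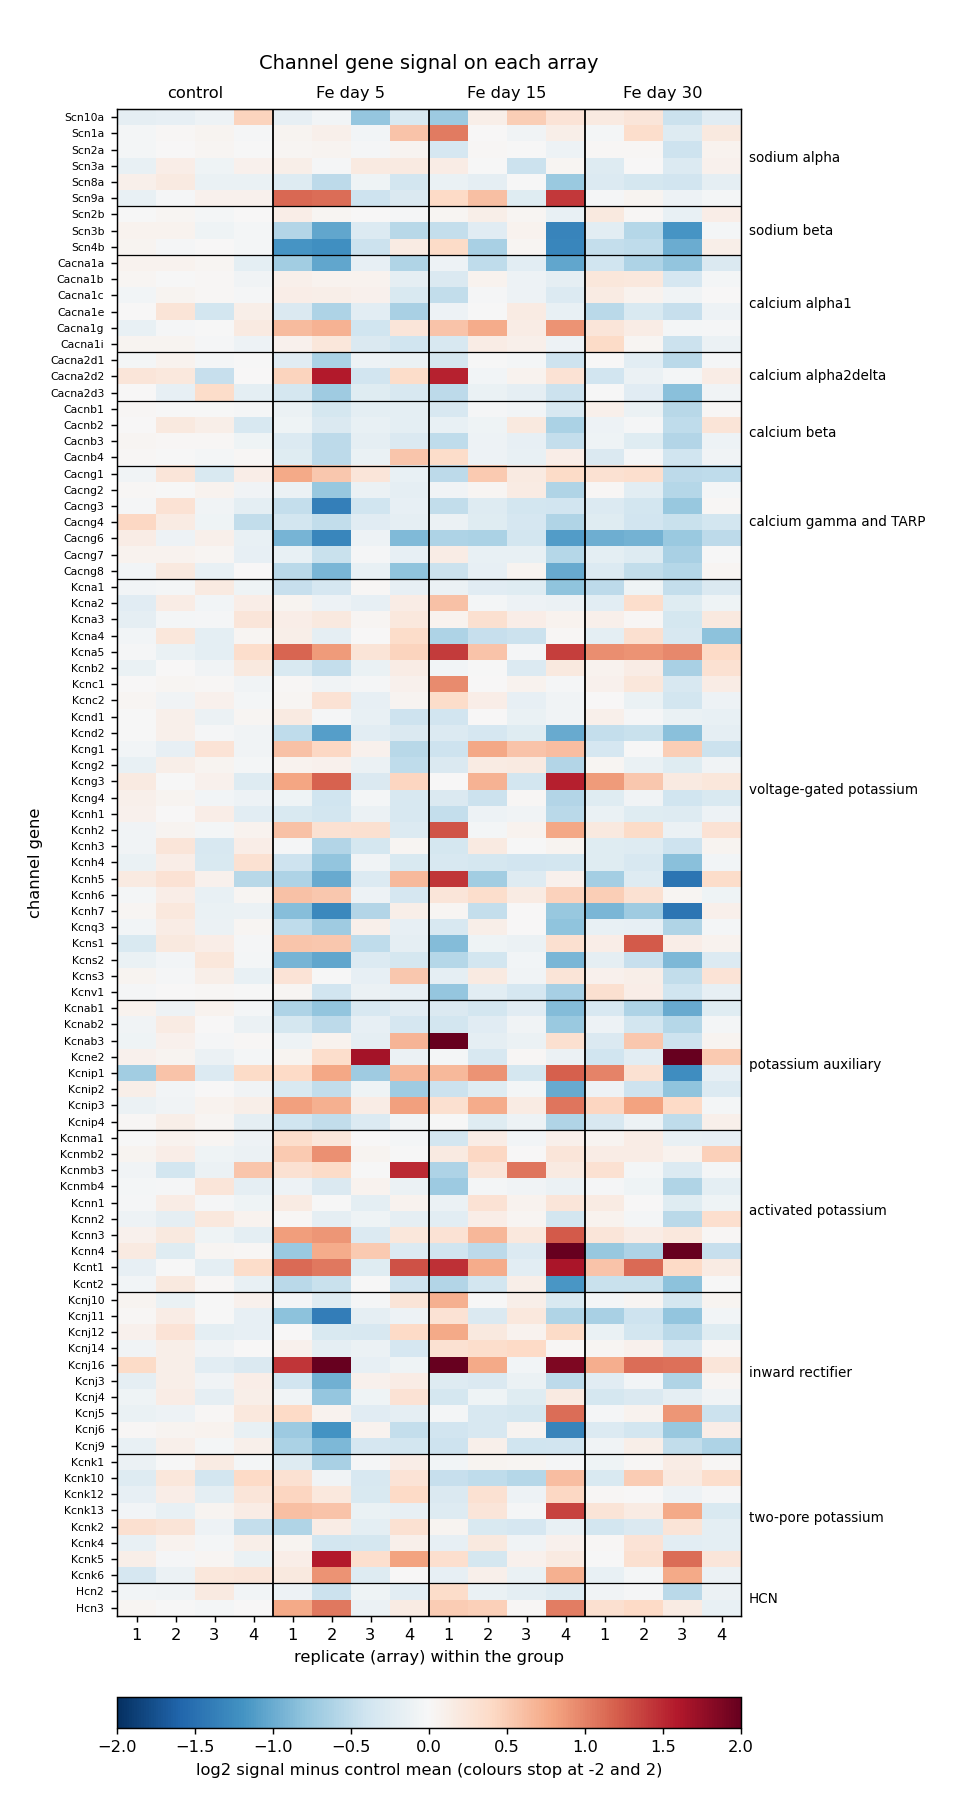
Log2 signal of 93 of the 99 channel genes (rows, by family) on each of the 16 arrays (columns, replicates 1 to 4 of each group) relative to the control mean of that gene, blue for lower and red for higher. Control columns are pale, Fe day 5 replicate 2, Fe day 15 replicate 4 and Fe day 30 replicate 3 hold 28, 27 and 34 genes of those shown more than 0.5 below the control mean, and Fe day 15 replicate 3 holds 1.

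There were 6 Fe arrays that shared a slide with a control. The control was the first array of each such slide, so group and position cannot be told apart in these pairs. Within slides, the median channel difference was -0.09 for Fe day 5 replicate 4, -0.18 for Fe day 15 replicate 1, -0.02 for Fe day 15 replicate 2, -0.01 for Fe day 15 replicate 3, -0.41 for Fe day 30 replicate 3 and -0.02 for Fe day 30 replicate 4. With the slide as a block in the fit, the medians were -0.12, -0.06 and -0.12 at days 5, 15 and 30, and the counts at an unadjusted p under 0.05 were 4 lower and 1 higher (2.90% and 1.28% of all features), 4 and 3 (4.89% and 4.03%), and 3 and 0 (3.49% and 2.21%). The share of lower channel genes was then 4.04%, 4.04% and 3.03%, below that of all features at days 15 and 30.

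**Figure D5:**
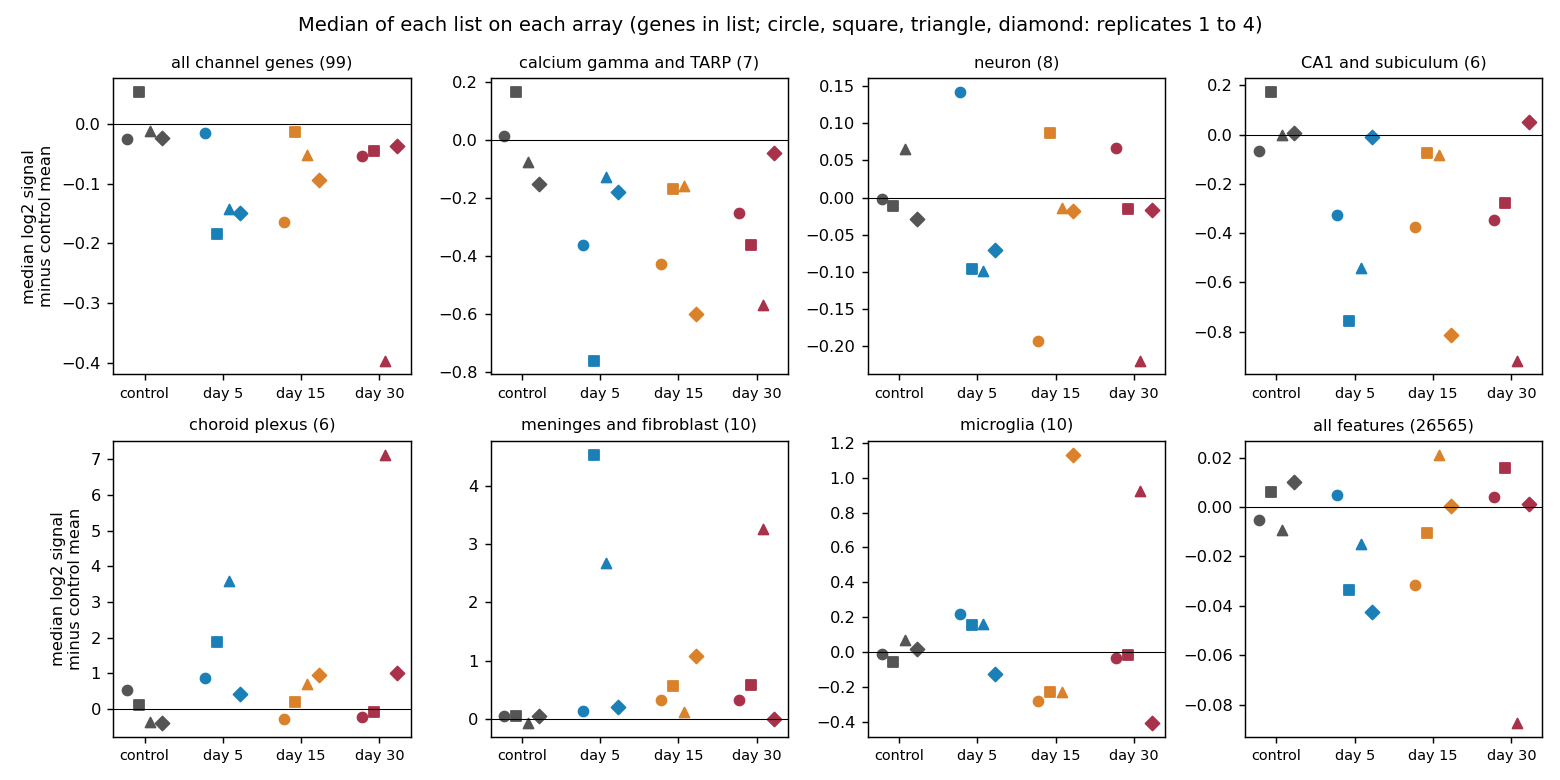
Median over each gene list of the deviation of the log2 signal from the control mean, on each array by group (symbols give replicates 1 to 4), for the 99 channel genes, the 7 calcium gamma and TARP genes, 5 marker lists and all features. Fe day 30 replicate 3 lies lowest for the channel genes at -0.40 and highest for choroid plexus markers at 7.13. The neuron list is also lowest on Fe day 30 replicate 3, at -0.22, and highest on Fe day 5 replicate 1, at 0.14.

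Proteins that bind or regulate these channels were examined as a further list, of which 38 of 50 genes were measured. Of these, 6 were lower and 4 higher at an unadjusted p under 0.05 at day 5, 5 and 2 at day 15, and 4 and 1 at day 30, against 6.28% and 4.06%, 6.33% and 5.17%, and 4.66% and 3.12% of all features. None was called (lowest adjusted p 0.075, for Rrad at day 15). The list's medians were -0.12, -0.09 and -0.09. Rrad, a small GTPase that inhibits calcium channels, read -2.05, -2.09, -2.26 and -2.04 in controls, -1.90, -1.77, -2.06 and -2.01 at Fe day 5, -1.71, -1.68, -1.47 and -1.46 at Fe day 15, and -1.83, -1.81, -1.71 and -1.81 at Fe day 30. All arrays of days 15 and 30 lay above all controls (0.53 and 0.32, SE 0.08, unadjusted p 2.0e-05 and 0.0021, adjusted p 0.075 and 0.45).

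Of the Kv4 partners, Dpp10, an auxiliary subunit that speeds Kv4 gating, was higher at day 5 (0.83, SE 0.33, adjusted p 0.47) and day 15 (0.75, adjusted p 0.41), and its relative Dpp6 was not (-0.28 and -0.09). Dlg4, the PSD-95 scaffold that clusters Kv1 and Kir channels, was lower on all 3 days (-0.38, -0.36 and -0.37, SE 0.14, adjusted p 0.47, 0.38 and 0.63) with every Fe array below every control. Nedd4, a ubiquitin ligase, was also below all controls on every Fe array (-0.20, -0.31 and -0.23, SE 0.08, adjusted p 0.47, 0.24 and 0.63). Nrcam, an adhesion protein of the axon initial segment, differed by -0.24, -0.33 and -0.23, and Lgi1, a secreted Kv1 regulator mutated in temporal lobe epilepsy, by -0.37, -0.47 and -0.26.

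Between Fe days there were no calls among the channel genes either, and the lowest adjusted p was 0.40 for day 15 against day 5. At an unadjusted p under 0.05, 4 genes were higher and 3 lower at day 15 than at day 5 (4.06% and 3.14% of all features), 2 higher and 4 lower at day 30 than at day 15 (2.82% and 3.67%), and none in either direction at day 30 against day 5 (1.45% and 1.52%). The median differences were 0.07, -0.04 and 0.01. The difference was below 0 for 35, 58 and 46 of the 99 genes, against 46.4%, 53% and 48.4% of all features. Those higher at day 15 than at day 5 included Kcnj14, Cacna1e and Kcnj12, and those lower were Kcna4, Kcnv1 and Kcnk5. Kcnv1 and Cacna1c were the 2 higher at day 30 than at day 15, and Kcnj12, Kcnj14, Cacna1g and Cacna1e the 4 lower. In 1 gene, Cacna1e, all arrays of day 15 lay above those of day 5 (2.07% of all features), and in 1 gene, Kcnj12, all arrays of day 30 lay below those of day 15 (1.89%). The Cacna1e results are those of its brightest probe, at -0.02 against control at day 15. Its dimmer probes gave -0.20, -0.18 and -0.15 there.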

How the data were processed

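RNA from the hippocampus of 16 rats was read on 16 arrays. Per the submitters' processing notes, images were read with Agilent Feature Extraction 9.5, and the deposited scanner files give, per the file headers, a background-subtracted processed signal per spot, an intensity on a linear scale. The deposited series table of intensity equalled it in 100% of entries and was not run apart. No genome coordinates of the array files were used, and gene names came from RefSeq accessions.

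From these values, log2 signals relative to the 75th percentile of the array were computed, leaving out outlier spots and averaging repeat spots of a probe. A probe was kept where every array of some group had it well above background (30548 of 41012 probes). The brightest probe stood for a gene, giving 26565 features, 9583 of them with a symbol. Of 20378 probes with a RefSeq accession, 15175 matched a gene name. Precision is limited by how many arrays a group holds.

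The 4 groups entered one linear model (limma 3.58.1, R 4.3.3; 12 residual degrees of freedom), with Benjamini-Hochberg adjustment over all features and a two-sided threshold of 0.05. The test was checked on simulated data. Members are the channel genes named by symbol. Genes named in the text are the brain channel genes of a list, the 5 of lowest p in each direction and comparison, the 5 of lowest p in the F-test, genes not above background on all arrays, and others chosen after their values were seen. Partner genes named are those of lowest p, with Dpp6 added later. Single values of 6 members are not reported here. The members and lists were chosen with earlier results of these data known. Nothing ties replicate numbers across groups: over 24 pairs of same-numbered arrays, the deviations correlated at -0.41 to 0.39, with 5 over 0.1. Other scalings, filters, blocks, array weights and leaving out arrays were tried.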

Additional observations from a re-analysis of the deposited data

Results flagged for a closer look

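In groups of 4 arrays, a highest or lowest value was singled out where its gap to the nearest other array took a larger share of the range of the group than Dixon's critical value for 4 samples allows. Of 308 groups examined, 21 met this, where chance gives about 1 in 20. Fe day 30 replicate 3 accounted for 5, more than any other array.

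Fe day 30 replicate 3 was lowest for Scn2a (3.31, the others 3.74 to 3.79) and Kcnj14 (-0.86, the others -0.51 to -0.46). It was highest for Kcne2 (0.99, the others -4.74 to -3.82). Its median over all 99 channel genes was -0.40 and over the 4 calcium beta genes -0.53, both lowest in the group. This is the array whose choroid plexus markers summed to 314 times the 75th percentile, and the part of that tissue in these values was not tested.

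At Fe day 5, replicate 2 was lowest for Cacng2 (0.11, the others 0.70 to 0.75) and for the calcium beta median (-0.44). Replicate 3 was lowest for Kcnip3 (-1.90), Kcnt1 (-3.27) and the two-pore potassium median (-0.22). Replicate 4 was lowest for Cacna1b (2.71) and Cacna1c (-0.72).

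At Fe day 15, replicate 1 was highest for Kcna2 (-1.64) and Kcnc1 (1.97), replicate 2 was highest for Kcnj9 (1.68), and replicate 4 was lowest for Kcnd2 (1.57). Fe day 30 replicate 4 was lowest for Kcna5 (-3.94). In controls, replicate 4 was highest for Scn10a (-5.18) and lowest for Cacna1a (-1.84), replicate 3 was highest for Hcn2 (-1.77), and replicate 2 had the highest channel median (0.0532).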

How the results depend on the processing

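Over 28 alternative settings, no channel gene was called in any of the 6 comparisons. The F-test, not run with only the 2 groups compared, called none either. The lowest adjusted p over the settings was 0.16 at day 5, 0.11 at day 15 and 0.073 at day 30, each with array weights. The median channel difference kept its sign against control under every setting (-0.15 to -0.07 at day 5, -0.09 to -0.03 at day 15, -0.14 to -0.05 at day 30), and leaving out single arrays gave -0.15 to -0.08, -0.09 to -0.05 and -0.14 to -0.06. With normexp background the day 5 median was -0.12 against -0.08 over all features, a gap of -0.04 in place of -0.09. Between Fe days the median took both signs for day 30 against day 15 (-0.09 to 0.03) and for day 30 against day 5 (-0.04 to 0.06). Of 5367 values of the named genes under alternatives, 5205 kept direction and side of the threshold, 162 changed sign with neither value past it, and none passed it.

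Counts at an unadjusted p under 0.05 moved more. With array weights they were 28 lower and 8 higher at day 5, 15 and 8 at day 15, and 13 and 2 at day 30 (9.77% and 7.60%, 8.45% and 7.24%, 7.11% and 7.16% of all features). With only the 2 groups compared in the fit they were 24 and 4, 13 and 9, and 15 and 5 (7.47% and 5.32%, 7.59% and 6.38%, 5.54% and 4.49%). With the replicate number as a block they were 13 and 5, 9 and 9, and 7 and 1 (5.21% and 4.08%, 5.46% and 5.21%, 3.93% and 3.14%), with medians of -0.11, -0.06 and -0.10 and no call. The cause was not tested. Leaving out 3 arrays and the slide as a random block were chosen after seeing the data. With 4 rats a group, differences near 0.13, the median standard error over all features, were not detectable. Much larger channel differences, such as -0.80 for Cacng6 at day 5, were not called either.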
